A study of Rattus norvegicus with 232 samples.

Results

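GABA-A receptors are chloride channels opened by the inhibitory transmitter GABA, and each is built from several subunits of which the alpha subunits help to form the GABA binding site. The alpha subunit sets where on the neuron the receptor sits, how it responds to GABA and whether classical benzodiazepines act on it. Gabra2 and Gabra3 encode alpha subunits of receptors found mostly at synapses, Gabra4 and Gabra5 encode alpha subunits of receptors found largely outside synapses, and Gabra6 encodes the alpha subunit of cerebellar granule cells. The 5 genes Gabra2, Gabra3, Gabra4, Gabra5 and Gabra6 were chosen by name, and all 5 were present among the 20859 genes of the table analysed here.

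The samples were brains of untreated male rats of the Hybrid Rat Diversity Panel, labelled as whole brain, from which ribosomal RNA was depleted before stranded sequencing of total RNA. The labels describe 232 samples of 74 inbred strains in 19 sequencing batches, and none of the groups received a treatment or carried a transgene. The panel holds the HXB/BXH recombinant inbred strains, derived from the progenitors SHR/OlaIpcv and BN-Lx/Cub, the FXLE/LEXF recombinant inbred strains, derived from F344/Stm and LE/Stm, and classic inbred strains. The methods of the study, which cover 45 strains, state that the rats were young adults and that brains were halved sagittally for sequencing. Tissue of the HXB/BXH strains and their progenitors was shipped in liquid nitrogen from Prague. The remaining inbred strains of that study came from commercial breeders, and their brains were placed in RNAlater and frozen. The source of strains added later is not stated there.

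The main table, here v7.1, held 214 libraries that were averaged to 197 animals of 74 strains. They comprised 30 HXB/BXH strains with 88 animals, 19 FXLE/LEXF strains with 43 animals and 25 inbred strains with 66 animals, the 4 progenitors being counted as inbred. An earlier table, here v5, held 132 animals of 45 strains, and an intermediate table, here v6, held 165 animals of 58 strains. The inbred strains that founded neither family are called the other inbred strains, 21 in v7.1, 19 in v6 and 11 in v5. All values are on the log2 scale as deposited, where a difference of 1 is a doubling. Because these values are not scaled by transcript length, a level of a gene was compared between rats and not with the level of another gene. In 3 of 192 v7.1 animals the closest animal over strain-variable genes belonged to another strain, namely F344/Stm animal 1, LEW/SsNHsd animal 3 and LEXF2C/Stm animal 3. The only LE/Stm animal of v7.1 had an albumin (Alb) level of 23.2 against at most 17.2 in the other 196 animals, and the 3 LEW/Crl animals, labelled male like all others, had low levels of the Y-linked gene Kdm5d. Leaving out LE/Stm, LEW/Crl or LEXF2C/Stm animal 3 changed 1 of the members' strain calls described below, that of Gabra2 over all strains, which passed without LEW/Crl (limma adjusted p = 0.0484).

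On the rn6 genome, Gabra2 lay on the plus strand at chr14:39616940-39832094 and Gabra4 on the plus strand at chr14:39058323-39363538, so that both are neighbours on chromosome 14. Gabra3 lay on the minus strand at chrX:152413911-152642531 and Gabra5 on the minus strand at chr1:112833944-112947451. Gabra6 lay on the minus strand at chr10:27834122-27862868. The transcribed spans were 305.2 kb for Gabra4, 228.6 kb for Gabra3, 215.2 kb for Gabra2, 113.5 kb for Gabra5 and 28.7 kb for Gabra6.

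RefSeq promoter sequences (GRCr8 build, 300 bases reaching from upstream to just past the annotated start) were matched for 4 members. They are shown because their CpG content differed among the members. Capitals mark CpG dinucleotides, read 5′ to 3′ on the strand of the gene. The promoters fell into CpG-rich and CpG-free pairs. Gabra5 (chr1:117516557-117516856, minus strand) held 42 CpG and Gabra4 (chr14:36944497-36944796, plus strand) held 35. Gabra3 (chrX:155543821-155544120, minus strand) and Gabra6 (chr10:27327185-27327484, minus strand) held 0.
Gabra5: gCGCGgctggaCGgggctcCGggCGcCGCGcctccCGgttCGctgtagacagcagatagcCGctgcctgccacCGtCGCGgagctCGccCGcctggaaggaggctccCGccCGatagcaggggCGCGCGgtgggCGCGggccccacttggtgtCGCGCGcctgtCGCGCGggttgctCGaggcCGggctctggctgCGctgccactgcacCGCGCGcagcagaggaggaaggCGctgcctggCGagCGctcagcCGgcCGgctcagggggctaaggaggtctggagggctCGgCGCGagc
Gabra4: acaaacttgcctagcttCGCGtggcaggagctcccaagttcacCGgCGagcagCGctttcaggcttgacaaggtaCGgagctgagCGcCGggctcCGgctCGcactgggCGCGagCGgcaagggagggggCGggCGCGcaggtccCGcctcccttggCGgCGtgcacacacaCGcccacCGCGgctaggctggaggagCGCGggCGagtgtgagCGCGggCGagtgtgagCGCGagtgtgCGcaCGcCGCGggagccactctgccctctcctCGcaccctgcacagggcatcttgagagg
Gabra3: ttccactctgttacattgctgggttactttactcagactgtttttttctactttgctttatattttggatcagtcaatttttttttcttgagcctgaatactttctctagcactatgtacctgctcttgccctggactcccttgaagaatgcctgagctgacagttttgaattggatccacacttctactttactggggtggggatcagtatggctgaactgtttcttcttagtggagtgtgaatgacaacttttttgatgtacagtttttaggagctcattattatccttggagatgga
Gabra6: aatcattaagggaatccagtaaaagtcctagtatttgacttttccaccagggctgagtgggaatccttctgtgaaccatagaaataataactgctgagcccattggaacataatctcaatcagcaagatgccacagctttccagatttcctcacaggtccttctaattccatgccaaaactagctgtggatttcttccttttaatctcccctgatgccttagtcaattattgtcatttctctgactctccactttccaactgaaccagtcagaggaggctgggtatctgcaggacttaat
Over the 33469 RefSeq promoters of the same length the median was 7 CpG, 2.399% held at least as many as Gabra5, and 6.13% held at least as many as Gabra4. The GC content was 76.3% for Gabra5, 70.7% for Gabra4, 42.3% for Gabra6 and 39.3% for Gabra3, against a median of 51.7%. The letters TATAAA on either strand were found in the Gabra3 window and in 14.2% of all promoters. These counts describe the windows and were not related to any measured binding or methylation.

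Across strains, Gabra2, Gabra3, Gabra4 and Gabra5 moved within a narrow band whereas Gabra6 spread widely. In v7.1 the 197 animals ranged for Gabra2 from 11.36 over a median of 11.84 to 12.31. Gabra3 ranged from 11.06 over a median of 11.56 to 12.05. Gabra4 ranged from 11.40 over a median of 11.90 to 12.49. These 3 genes thus spanned about 1 log2 unit between the lowest and the highest animal. Gabra5, the alpha subunit best known from hippocampal pyramidal cells, ranged from 10.46 over a median of 10.87 to 11.33. Gabra6 ranged from 10.11 over a median of 11.33 to 13.06, a span of several log2 units. Between the lowest and the highest strain mean the fold difference was 1.49 for Gabra2, 1.46 for Gabra3, 1.61 for Gabra4 and 1.54 for Gabra5, but 3.04 for Gabra6. The lowest strain was a single animal for Gabra4 (LE/Stm), Gabra5 (LEXF9/Stm) and Gabra6 (FXLE13/Stm). Among strains with 2 or more animals these genes ran from 11.63 to 12.20, from 10.67 to 11.08 and from 10.64 to 12.05. The spread among animals of the same strain was wide against those spans. The within-strain SD was 0.16 for Gabra2, 0.15 for Gabra3, 0.18 for Gabra4, 0.12 for Gabra5 and 0.48 for Gabra6. When the 69 strains with 2 or more animals were ordered by mean, none of the 68 gaps between neighbours exceeded the within-strain SD in any of the 5 genes. The ranges of neighbouring strains overlapped in all 68 pairs for Gabra2, Gabra3 and Gabra5, and in 67 of 68 pairs for Gabra4 and for Gabra6.

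**Figure D1:**
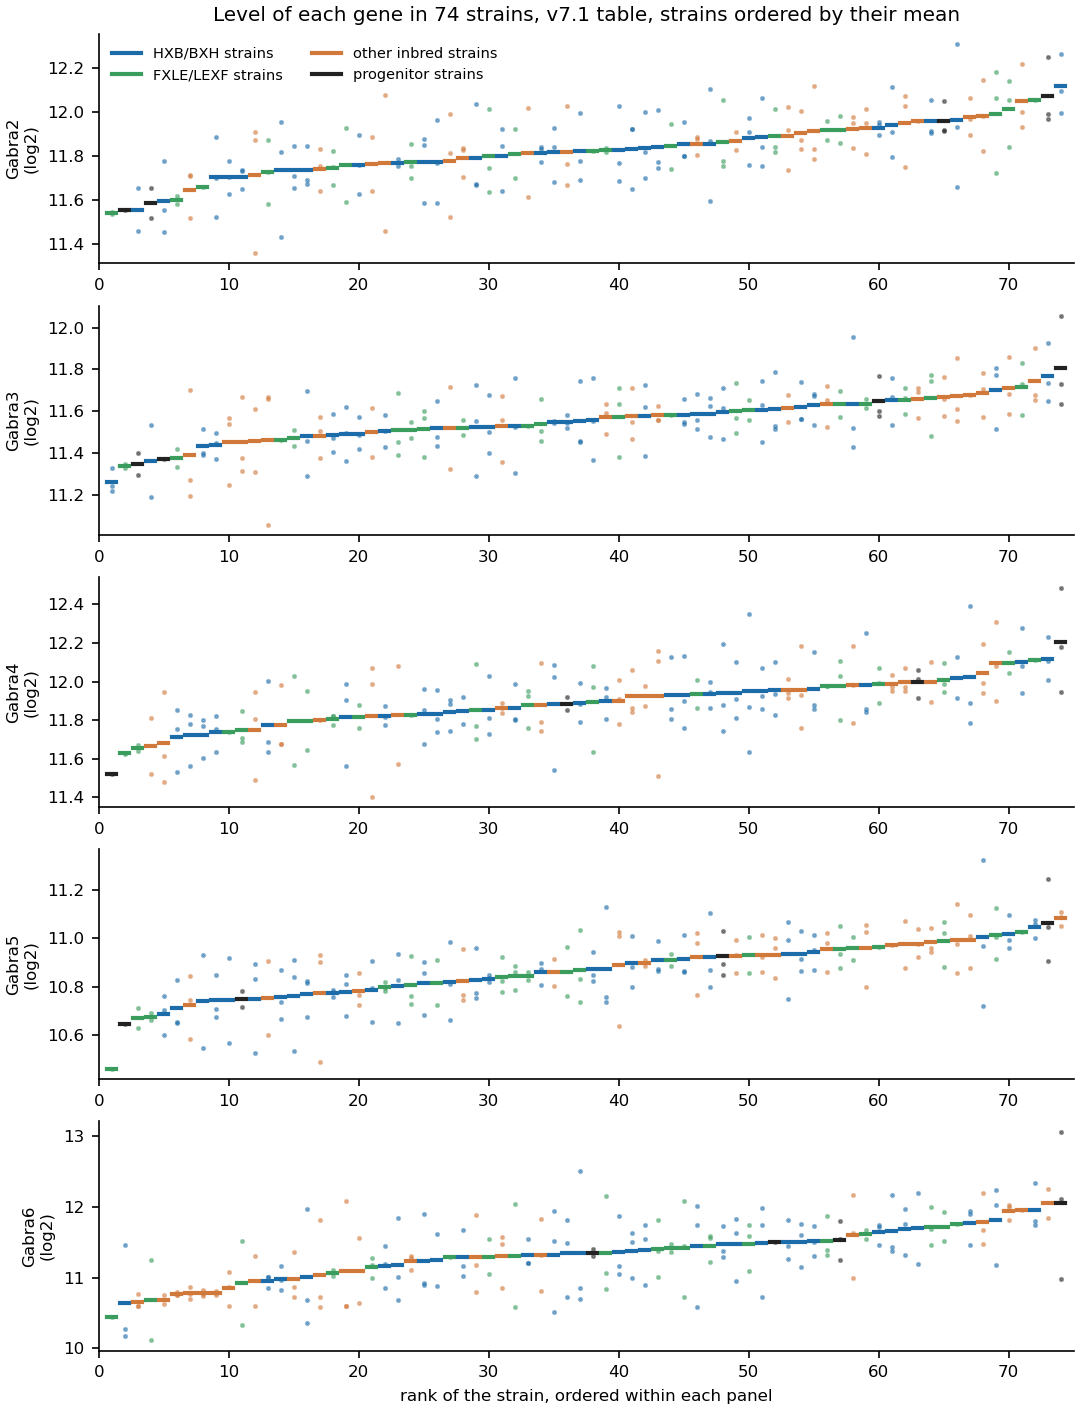
Levels of the 5 genes in the v7.1 table (y axis, log2), with the 74 strains ordered by their mean within each panel (x axis, rank), horizontal bars for strain means, dots for animals and colours for strain groups. Among strains with 2 or more animals the ladder of strain means rises without a step in every panel. For Gabra5 the single LEXF9/Stm animal at 10.46 lies below the next mean, that of the single LE/Stm animal at 10.64. The Gabra6 means span 3.04-fold against 1.46-fold to 1.61-fold for the other 4 genes.

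Among the 69 strains with 2 or more animals, the same few stood at the ends of the order for Gabra2, Gabra3, Gabra4 and Gabra5. These strains were picked for their means, so their values are given as a description. LEXF1C/Stm was among the 3 lowest strains in all 4 genes, with 11.55 and 11.54 for Gabra2, 11.33 and 11.35 for Gabra3, 11.63 and 11.62 for Gabra4, and 10.63 and 10.71 for Gabra5 in its 2 animals. SHR/OlaIpcv was among the 3 lowest for Gabra2 (11.66 and 11.52) and Gabra3 (11.40 and 11.30). HXB1/Ipcv was the lowest strain for Gabra3 with 11.22, 11.24 and 11.33. The 2 animals of LEXF1C/Stm differed by less than 0.1 in each of these genes.

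BN-Lx/Cub was among the 3 highest strains in all 5 genes. Its animals had Gabra2 levels of 12.25, 11.99 and 11.97, Gabra3 levels of 12.05, 11.73 and 11.63, and Gabra4 levels of 12.49, 12.18 and 11.95. HXB24/Ipcv, with Gabra2 levels of 12.10, 11.998 and 12.27, was the highest strain for Gabra2 and stood among the 3 highest for Gabra3 and Gabra4. M520/N was the highest for Gabra5 with 11.11, 11.09 and 11.05. BN-Lx/Cub animal 1 was the highest of its strain in every gene, while M520/N varied little. For Gabra2 to Gabra5 no animal of the 3 lowest strains reached an animal of the 3 highest strains. For Gabra6 the extremes overlapped. Its lowest strain, HXB1/Ipcv, had 10.28, 10.18 and 11.46, and its highest strain, BN-Lx/Cub, had 13.06, 10.98 and 12.11. The second animal of BN-Lx/Cub was therefore below the third of HXB1/Ipcv. DA/OlaHsd was consistently low for Gabra6, with 10.60, 10.60 and 10.77.

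The question of how far strain accounts for the level was addressed by R2, the share of the variance lying between strains. The limma moderated F-test across all genes was used beside it. With so few animals per strain R2 lies well above 0 even without a strain effect, as the paper's permuted strain labels also showed. It is therefore read here against all genes and not as the share due to strain. Over all 74 strains 1 of the 5 genes passed the 5% false discovery rate, while 37.3% of all genes did. This gene was Gabra5, with R2 = 0.53 (limma adjusted p = 0.00462), at the 79.6th percentile of all genes. Gabra2 had R2 = 0.47 (limma adjusted p = 0.0562) and Gabra6 had R2 = 0.45 (limma adjusted p = 0.0861). Gabra3 with R2 = 0.45 and Gabra4 with R2 = 0.41 had limma adjusted p = 0.124 and 0.256. The median R2 of all genes was 0.45, and 3 of the 5 members lay above it. The Gabra5 call was lost when all animals with replicate number 1 or all with replicate number 2 were left out (limma adjusted p = 0.126 and 0.207). In the other direction, Gabra2 and Gabra3 passed without replicate number 3 (limma adjusted p = 0.0430 and 0.0364) and Gabra6 passed without replicate number 2 (limma adjusted p = 0.0450). With batch as a covariate, where 73.1% of all genes passed, all 5 members did, with limma adjusted p of 0.00206 for Gabra2, 0.00340 for Gabra3, 0.00268 for Gabra4, 0.000454 for Gabra5 and 0.00949 for Gabra6. That fit counts the repeated libraries of 3 animals as replicates. With 1 library per animal, where 55.7% of all genes passed, 4 of the 5 members did and Gabra6 did not (limma adjusted p = 0.0638). Either fit weighs batches whose means were already nearly level in the deposited values, as described below. In v5, where 63.6% of all genes passed over all strains, 4 of the 5 members did and Gabra3 did not (limma adjusted p = 0.230). With batch as a covariate in v5, where 55.1% of all genes passed, Gabra4, Gabra5 and Gabra6 did.

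In v7.1 no member passed within either family. In the 30 HXB/BXH strains 0 of the 5 members passed by limma, against 19.1% of all genes, and 0 had an unadjusted p below 5%, against 32.6% of all genes. Their R2 ran from 0.31 for Gabra6 to 0.42 for Gabra5, beside a median of 0.41 for all genes. In the 19 FXLE/LEXF strains 0 of the 5 passed by limma, against 4.61% of all genes, and Gabra5 alone had an unadjusted p below 5%, as did 22.1% of all genes. Gabra5 had the highest R2 among the members there, 0.73, at the 96.1st percentile of all genes (limma adjusted p = 0.0698). Its lowest strain means in this family were 10.46 in the single LEXF9/Stm animal, 10.67 in LEXF1C/Stm and 10.68 in FXLE15/Stm (10.66 and 10.69), and the highest among strains with 2 or more animals was 11.02 in LEXF10A/Stm (10.92, 11.00 and 11.13). The animals of LEXF1C/Stm and FXLE15/Stm were all below those of LEXF10A/Stm, but these strains were picked for their means, so this is a description. Without LEXF9/Stm the limma adjusted p of Gabra5 in this family was 0.174, whereas 3 of 12 alternatives brought it past the threshold. The lowest limma adjusted p, 0.0311, came from the v6 table. That table held only 5 strains with 13 animals of this family, LEXF1C/Stm and LEXF10A/Stm among them, and 2896 of its 18644 genes passed there. In the 25 inbred strains 1 of the 5 members passed by limma, against 19.3% of all genes. This was Gabra6, with R2 = 0.59 (limma adjusted p = 0.0129), and the call was lost without replicate 1 or replicate 2 (limma adjusted p = 0.272 and 0.225). Gabra2 passed there without replicate 3 (limma adjusted p = 0.0484). The Gabra6 means of batches 8, 10 and 11 were 11.06 to 11.09 against 11.36 to 11.50 in the other 14 batches of v7.1. Other inbred strains gave most libraries of batches 8, 10 and 11, but also 9 of 15 in batch 16 and 11 of 12 in batch 17, whose means were 11.41 and 11.39. With batch as a covariate Gabra6 passed in the inbred strains of v7.1 (limma adjusted p = 0.0362). It also passed in v5 without a batch term (limma adjusted p = 9.85e-06), but not in v5 with one (limma adjusted p = 0.346).

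**Figure D2:**
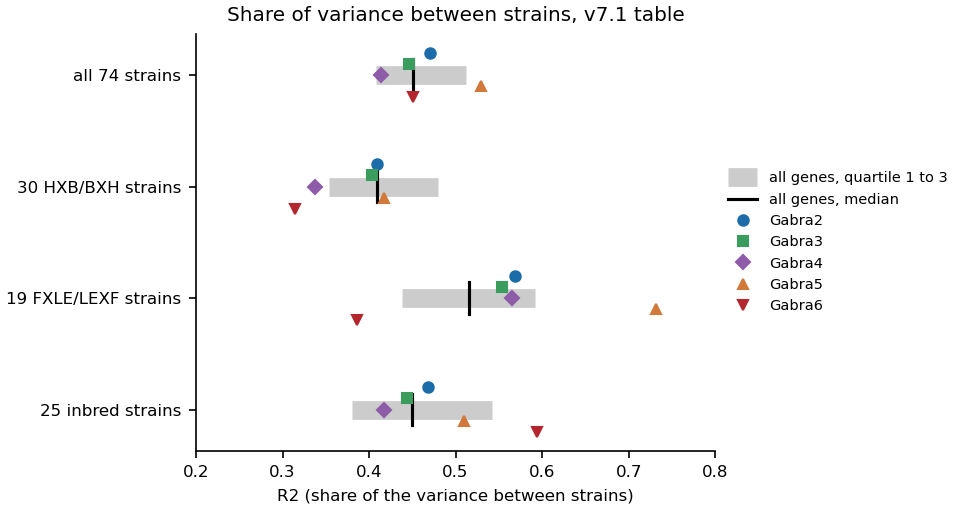
Share of the variance between strains, R2 (x axis, no unit), for the 5 genes in 4 sets of strains of the v7.1 table (y axis), beside the median (black bar) and the middle quartiles (grey band) of all 20859 genes. Gabra5 reaches 0.73 in the FXLE/LEXF strains and Gabra6 reaches 0.59 in the inbred strains, both beyond the grey band.

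Progenitors were compared because a difference between them can segregate in their family. SHR/OlaIpcv had lower levels than BN-Lx/Cub for Gabra2, by -0.48 ± 0.14 (SE, limma adjusted p = 0.0298, n = 2 and 3 animals), and for Gabra3, by -0.46 ± 0.13 (SE, limma adjusted p = 0.0255). Thus 2 of the 5 members were lower in SHR/OlaIpcv, where 2.63% of all genes were lower and 4.51% passed in either direction. The SHR/OlaIpcv animals, at 11.66 and 11.52 for Gabra2, lay below the BN-Lx/Cub animals at 12.25, 11.99 and 11.97 with no overlap. Gabra4 differed by -0.32 ± 0.16, Gabra5 by -0.32 ± 0.11 and Gabra6 by -0.70 ± 0.43 (SE), and these 3 did not pass (limma adjusted p = 0.262, 0.0912 and 0.382). Among the other GABA-A subunit genes, the beta subunit gene Gabrb2 was lower too, at -0.57 (limma adjusted p = 0.0267). All 4 blood markers were higher in SHR/OlaIpcv, from +1.08 for Hbb to +1.49 for Alas2, and their part in the subunit differences was not tested. The calls of Gabra2 and Gabra3 were lost without any of 3 animals. Each was kept in 7 of 14 alternatives, and both were also lost under the replicate block described below. Without BN-Lx/Cub animal 1 the differences were -0.39 and -0.33 (limma adjusted p = 0.289 and 0.377). Without SHR/OlaIpcv animal 1 or animal 4, which leaves 1 animal in that strain, assumed to vary like the others, the difference was -0.55 or -0.41 for Gabra2 (limma adjusted p = 0.115 and 0.391) and -0.51 or -0.40 for Gabra3 (limma adjusted p = 0.116 and 0.352). In v5, which held SHR/OlaIpcv animals 1, 2 and 3, animal 1 by its batch 11 library alone, the differences were 0.07 ± 0.09 for Gabra2 and -0.08 ± 0.09 for Gabra3 (SE, limma adjusted p = 0.767 and 0.722). There 0 of the 5 members passed by limma, against 4.37% of all genes, and 0 had an unadjusted p below 5%, against 16.8% of all genes. The v5 Gabra2 levels of 11.16, 11.08 and 11.35 in SHR/OlaIpcv overlapped those of 11.10, 11.11 and 11.17 in BN-Lx/Cub.

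The HXB/BXH strains were then placed against their progenitors. In v7.1, 28 of 30 strain means lay between the progenitors for Gabra2, 29 for Gabra3, 25 for Gabra5, 17 for Gabra6 and 16 for Gabra4. In v6, where the progenitors differed by -0.20 for Gabra2 and -0.22 for Gabra3, the counts in the same order of genes were 16, 17, 9, 15 and 2 of 30. In v5, where the progenitors differed little, 5 of 30 lay between them for Gabra2, 7 for Gabra3, 0 for Gabra4, 4 for Gabra5 and 7 for Gabra6. The v5 strains outside the progenitor range mostly lay below both progenitors, from 19 strains for Gabra2 to 28 for Gabra4. In v7.1 the progenitors stood far apart for Gabra2 (11.59 and 12.07) and Gabra3 (11.35 and 11.81). All 21 other inbred strains, which do not descend from this cross, lay between them too, at 11.65 to 12.05 and 11.39 to 11.74. Such counts depend on the distance between the progenitors and do not show segregation. In the FXLE/LEXF family, where LE/Stm is the 1 animal with the high albumin level, 15 of 19 strain means lay between F344/Stm and LE/Stm for Gabra2 and Gabra3, 16 for Gabra4 and 11 for Gabra5. For Gabra6 the progenitors stood at 11.53 and 11.50, and 14 of the 19 strains lay below both. A mixture model of strain means in v7.1 found 1 cluster in each of the 15 combinations of the 5 genes with the HXB/BXH, the FXLE/LEXF and all strains. This cannot exclude a low and a high class of strains. In the paper's simulations with larger effects of variants near the gene, most genes were also assigned 1 mode.

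In v7.1 no member passed in the other progenitor pair or in either hypertension pair. F344/Stm minus LE/Stm was 0.40 ± 0.18 for Gabra2, 0.28 ± 0.17 for Gabra3, 0.48 ± 0.20 for Gabra4, 0.28 ± 0.14 for Gabra5 and 0.03 ± 0.55 for Gabra6 (SE, n = 3 and 1 animals, limma adjusted p from 0.379 to 0.983). These differences rest on the single LE/Stm animal with the albumin level of 23.2, and the test assumes that it varies like the animals of other strains. In that comparison 0.796% of all genes passed by limma. SHR/OlaIpcv minus WKY/NCrl, the hypertensive strain against a normotensive strain of shared origin, ranged from -0.34 ± 0.14 for Gabra2 to 0.31 ± 0.43 for Gabra6 (SE, limma adjusted p = 0.414 and 0.913). Here 0.825% of all genes passed, and 2 of the 5 members, Gabra2 and Gabra5, had an unadjusted p below 5%, as did 8.49% of all genes. In v5, with the batch 11 library for SHR/OlaIpcv animal 1, Gabra6 was higher in SHR/OlaIpcv than in WKY/NCrl by 2.65 ± 0.49 (SE, limma adjusted p = 3.03e-05), as the only member called, against 24.6% of all genes. WKY/NCrl, at a mean of 9.23, is 1 of the 11 other inbred strains that were all low for Gabra6 in v5, as described below. SHR/OlaIpcv stood at 11.88, within the range of the HXB/BXH strains. This pair difference cannot be told apart from that group difference or from the place of tissue collection. The Dahl salt-sensitive SS/JrHsd minus the salt-resistant SR/JrHsd ranged from -0.18 ± 0.14 for Gabra4 to -0.01 ± 0.39 for Gabra6 (SE, limma adjusted p = 0.832 and 1.00). In that pair 0.988% of all genes passed by limma, and 0 members had an unadjusted p below 5%, against 10.1% of all genes.

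Gabra2 differed between the HXB/BXH strains in v5. There it passed by limma (adjusted p = 8.90e-05), as 1 of the 5 members, against 23.5% of all genes, and it passed with batch as a covariate too (limma adjusted p = 0.0495), where 23.4% of all genes did. The lowest strain was BXH3/Cub with 10.96, 10.85 and 10.95, and the highest was HXB24/Ipcv with 11.32, 11.28 and 11.38. All 3 animals of HXB24/Ipcv lay above all 3 of BXH3/Cub, but these strains were picked for their means, so this is a description. HXB24/Ipcv was also the highest of the 30 strains for Gabra2 in v7.1, and the strain means of both tables had a Pearson r of 0.74 over the 30 strains. That r describes tables that share animals, 86 of them in this family. The F of batch for Gabra2 was 15.6 in v5, and its batch means ran from 10.95 in batch 5 to 11.23 in batch 1 among the 6 batches that held mostly HXB/BXH libraries. The mixture model of the 30 strain means found 1 cluster.

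Gabra6 set the other inbred strains of v5 apart from all the rest. The comparison was added after the values had been seen. Over 30 HXB/BXH strains the v5 strain means ran from 11.26 over a median of 11.80 to 12.37, and over 11 other inbred strains they ran from 8.48 over a median of 8.76 to 9.81. The strain means did not overlap. The difference was -2.87 ± 0.12 (SE, limma adjusted p = 2.87e-37), which is 7.33-fold lower in the other inbred strains. This SE and p, like those of this group comparison below, rest on the spread of animals within strains and not on that between strains. The SD of the strain means was 0.24 in the HXB/BXH strains and 0.47 in the other inbred strains. In v5, 63.7% of all genes passed in this comparison and 30.3% were lower in the other inbred strains. The genes that passed comprised 6112 higher ones of 11668, and 4961 of 11836 after median centring, which left Gabra6 at -2.89. F344/NHsd, at 8.45, 8.44 and 8.54, and DA/OlaHsd, at 8.50, 8.48 and 8.48, had the lowest means and little spread. By contrast, the progenitors were at the level of the HXB/BXH strains, with 11.93, 11.47 and 12.02 in F344/Stm and 11.92 and 12.005 in LE/Stm.

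Of the 33 animals of the other inbred strains in v5, 2 rose above the lowest HXB/BXH animal at 10.94. These were F344/NCrl animal 2 with 11.83 and SHRSP/A3NCrl animal 1 with 11.94. Over strain-variable genes of v5 the first was nearest to SHRSP/A3NCrl (Pearson r of 0.60 against 0.21 to its own strain) and the second nearest to F344/NCrl (0.60 against 0.33), while the other 3 animals of v5 nearest to another strain had r of 0.86 to 0.93. In v6 the second was nearest to BXH3/Cub (0.41 against 0.38). Without both strains 62.8% of genes passed and Gabra6 differed by -3.06 (limma). The mixture model of the 45 strain means of v5 placed Gabra6 in 2 clusters, 11 strains at 8.89 and 34 strains at 11.79, and the 11 were the other inbred strains.

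**Figure D3:**
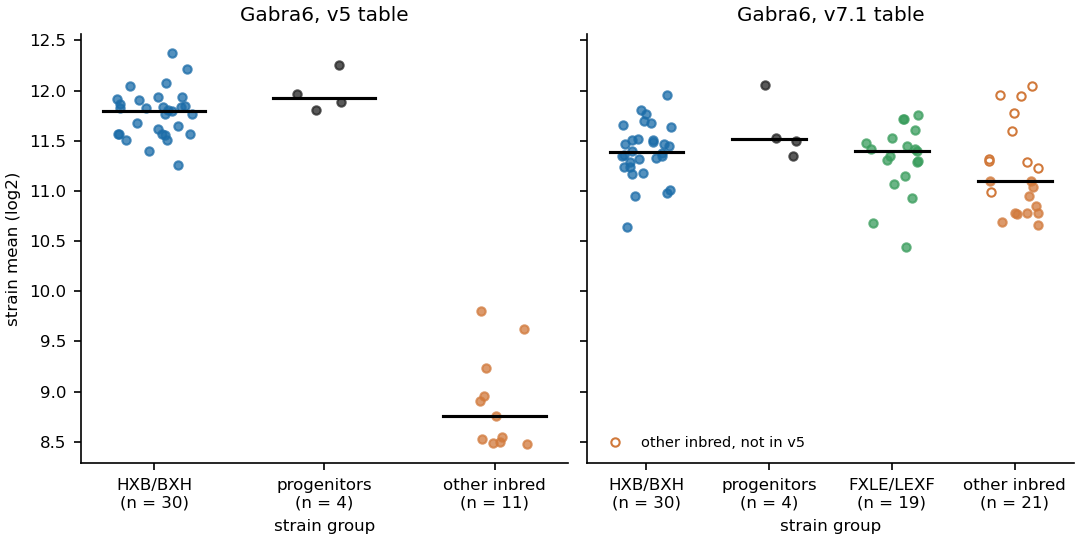
Strain means of Gabra6 (y axis, log2) by strain group (x axis) in the v5 table (left) and the v7.1 table (right), with points for strains, open where an other inbred strain is not in v5, and black bars for group medians. In v5 the 11 other inbred strains at 8.48 to 9.81 lie apart from the 30 HXB/BXH strains at 11.26 to 12.37, while in v7.1 the same 11 lie at 10.66 to 11.10 and the 10 strains not in v5 reach 12.05.

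In v7.1 the gap was smaller, and the other inbred strains were not the same set. The 11 strains that v5 also held ran from 10.66 over a median of 10.78 to 11.10, below the mean of 26 of the 30 HXB/BXH strains. They differed from the HXB/BXH strains by -0.53 ± 0.10 in v7.1 and by -0.54 ± 0.10 in v6 (SE, limma adjusted p = 0.00112 and 0.00104), where 1.47% and 1.65% of all genes passed. This choice of strains was made after the values had been seen. The 10 other inbred strains that v5 did not hold ran from 10.98 over a median of 11.46 to 12.05. All 21 other inbred strains together ran from 10.66 over a median of 11.10 to 12.05 and the 30 HXB/BXH strains from 10.64 over 11.39 to 11.96, so these groups overlapped widely. The difference was then -0.20 ± 0.08 (SE, limma adjusted p = 0.299). Of the members 0 passed by limma in v7.1, where 0.988% of all genes did, and Gabra5 and Gabra6 had an unadjusted p below 5%, as did 9.64% of all genes. With its 19 other inbred strains the v6 table gave -0.32 ± 0.08 (SE, limma adjusted p = 0.0369), with 0.896% of all genes past the threshold. Batch means were nearly level in v7.1 and v6, as described below, and only batch 10 held libraries of both groups. Levelling can take out a difference between groups that lie in separate batches, so the overlap does not show that the groups are alike. Its part here was not tested.

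The tables differed in how far batch means varied. The median F of batch over all genes was 4.55 in v5 but 0.0863 in v7.1 and 0.120 in v6, where values below 1 mean that batch means differed less than libraries within a batch. For Gabra6 this F was 30.9 in v5, 0.716 in v7.1 and 0.771 in v6. Only batch 10 held libraries of both groups. In its v7.1 values the 5 HXB/BXH strains were at 11.73 in BXH2/Cub, 11.74 in BXH5/Cub, 12.17 in BXH8/Cub, 11.83 in HXB29/Ipcv and 12.02 in HXB31/Ipcv, and the 7 other inbred strains were at 10.60 to 10.66. No strain mean of one group reached the other, and the difference of -1.28 had an exact two-sided permutation p = 0.00253, the smallest this design allows. The groups were compared after the values had been seen, so this p describes a separation already known and is no separate support. Within that batch the difference was -2.77 in v5 and -1.26 in v6, with the same exact permutation p from largely the same libraries. The 7 other inbred strains had 10 libraries there in v7.1, 11 in v6 and 12 in v5. Single libraries did overlap in v5. F344/NCrl animal 2 and SHRSP/A3NCrl animal 1, both of batch 10, lay above BXH2/Cub, BXH5/Cub and HXB29/Ipcv, at 11.43, 11.33 and 11.76. With a batch term and 1 library per animal it was -2.70 ± 0.35 in v5 (SE, limma adjusted p = 6.83e-09), where 20.7% of all genes passed. The same model gave -0.83 ± 0.32 in v7.1 and -1.002 ± 0.32 in v6 (SE, limma adjusted p = 0.126 and 0.127), where 0.772% and 0.681% passed. Place of tissue collection and strain group cannot be told apart for the HXB/BXH strains and the other inbred strains of v5.

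Markers of cerebellar neurons moved with Gabra6. The counts of markers called in v5 stand beside 63.7% of all genes called in that comparison. In v5 all 9 measured granule cell markers were lower in the other inbred strains than in the HXB/BXH strains, with a median difference of -0.66, among them Fat2 at -2.23, Neurod1 at -1.81 and Cbln1 at -1.73. All 6 Purkinje cell markers were lower too, with a median of -1.68 and Pcp2 at -2.53. Over all genes the median difference was 0.01. The mean level of the granule cell markers ran from 9.23 to 9.81 in the 11 other inbred strains and from 10.08 to 10.73 in the 30 HXB/BXH strains, with no overlap. In the other direction, 5 of 6 forebrain excitatory markers were higher, by a median of 0.12 over the 6. Of 5 olfactory bulb markers 4 were higher, with a median of 0.38 over the 5, and of 4 choroid plexus markers 3 were higher, with a median of 0.36 over the 4. Of 4 striatal markers 2 were higher and 1 lower, and of 4 thalamus markers 1 was higher and 2 were lower. Of 5 markers of neurons in general 3 were lower and 1 higher, with a median of -0.10 over the 5, and 1 of 4 astrocyte markers was lower. All 4 microglia markers were higher by a median of 0.42, 3 of 3 oligodendrocyte markers were lower by a median of 0.42 on the log2 scale (a median difference of -0.42), and all 4 blood markers were lower, with a median of -0.49. In v7.1, over all 21 other inbred strains, 3 of 11 granule cell markers and 0 of 6 Purkinje cell markers were lower by limma, with medians of -0.12 and -0.15. There 0.988% of all genes passed in either direction. The part of these markers in the Gabra6 difference was not tested, and in bulk tissue fewer cells of a type and less RNA per cell cannot be told apart.

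Gabra6 followed the granule cell markers across strains as well. Over the 45 v5 strains the Pearson r between Gabra6 and the mean of the granule cell markers was 0.98, a value set mostly by the gap between the groups. It was 0.74 over the 30 HXB/BXH strains and 0.94 over the 11 other inbred strains alone, and 0.74 over the 9 without F344/NCrl and SHRSP/A3NCrl, which hold these 2 animals nearer to another strain. In v7.1 it was 0.66 over 74 strains, and against the mean of the Purkinje cell markers it was 0.83. The points share libraries and batches, so these values are descriptions.

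**Figure D4:**
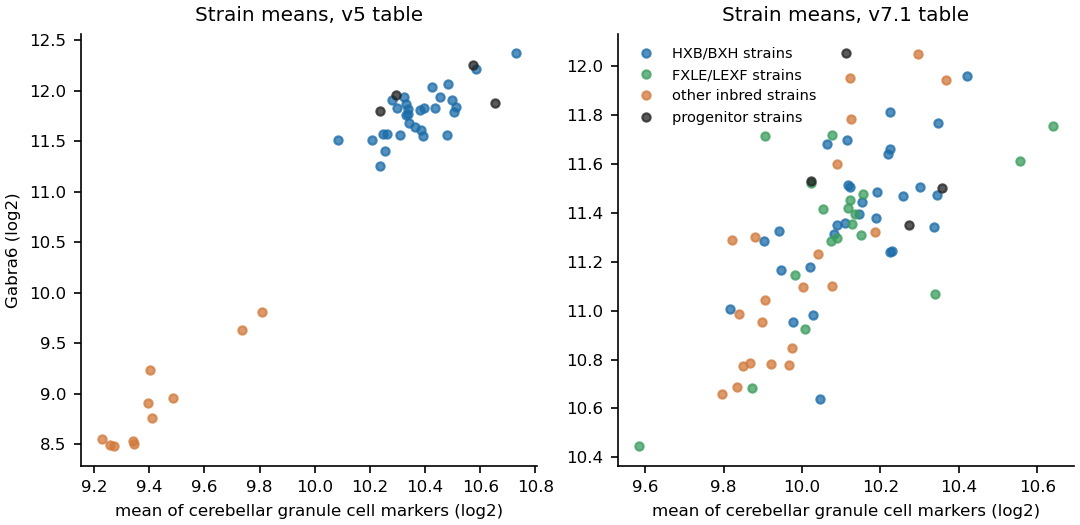
Gabra6 (y axis, log2) against the mean level of the cerebellar granule cell markers (x axis, log2), with 1 point per strain, in the v5 table (left) and the v7.1 table (right). In v5 the other inbred strains form a low group in both measures with r = 0.94 within it (0.74 without F344/NCrl and SHRSP/A3NCrl), and in v7.1 the groups run into each other with r = 0.66 over all strains.

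The other 4 members differed less than Gabra6 between these groups in v5. Gabra2 was higher in the other inbred strains by 0.18 ± 0.02 and Gabra5 by 0.19 ± 0.02, while Gabra4 was lower at -0.09 ± 0.03 (SE, limma adjusted p = 4.55e-11, 1.48e-10 and 0.0108). Gabra3 differed by 0.04 ± 0.02 and did not pass (SE, limma adjusted p = 0.0918). Under the batch term Gabra5 differed by 0.17 ± 0.07 (SE, limma adjusted p = 0.0478), and Gabra2 and Gabra4 no longer passed (limma adjusted p = 0.109 and 0.692). Within batch 10 the difference was 0.10 for Gabra2, -0.06 for Gabra3, -0.15 for Gabra4 and 0.11 for Gabra5 in v5. In the v7.1 values of that batch it was -0.14, -0.30, -0.30 and 0.06 in the same order, and these differences within the batch were not tested. Among 11 other GABA-A subunit genes of v5, 5 were higher and 2 lower, against 63.7% of all genes that passed. Among the lower ones was Gabrd at -0.45, the delta subunit that joins alpha6 in extrasynaptic receptors of granule cells. The higher ones were Gabrb1 at 0.17, Gabrg1 at 0.15, Gabrg3 at 0.17, Gabrr1 at 0.06 and Gabrr2 at 0.10.

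How far libraries of the same animal can differ in v7.1 was shown by SHR/OlaIpcv animal 1, which was sequenced in 12 libraries of 12 batches. Its Gabra6 level ran from 10.89 in batch 16 over a median of 11.32 to 12.73 in batch 11, with 11.82 as the next highest. Its Gabra2 level ran from 11.34 over 11.61 to 12.27 and its Gabra3 level from 11.08 over 11.42 to 11.74. The batch 11 library was the highest of the 12 for Gabra2, Gabra3, Gabra4 and Gabra6. The other 11 libraries of batch 11 came from other inbred strains, and this library stood at 11.12 for Gabra6 in v5. How far the levelling of batch means in v7.1 adds to this spread was not tested. Over the 3 animals with repeated libraries, 20 libraries in all, the SD between libraries of an animal was 0.22 for Gabra2, 0.17 for Gabra3, 0.15 for Gabra4, 0.13 for Gabra5 and 0.44 for Gabra6. These values are close to the SD between animals of a strain, 0.16, 0.15, 0.18, 0.12 and 0.48 in the same order. Of the 20 libraries 12 are those of SHR/OlaIpcv animal 1, the outlying batch 11 library included. No SD was computed without that library, so the closeness may rest on it. The spans over the 12 libraries were 0.94 for Gabra2, 0.67 for Gabra3, 0.46 for Gabra4, 0.54 for Gabra5 and 1.85 for Gabra6, and the spans of the strain means were 0.58, 0.54, 0.68, 0.62 and 1.61 in the same order. Without the batch 11 library the animal spanned 0.46, 0.43, 0.40, 0.54 and 0.93, less than the means of all 74 strains in each gene. For Gabra5 this rests on the single LEXF9/Stm animal at 10.46. Among strains with 2 or more animals the Gabra5 means ran from 10.67 to 11.08, a narrower span than the 0.54 of this animal.

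**Figure D5:**
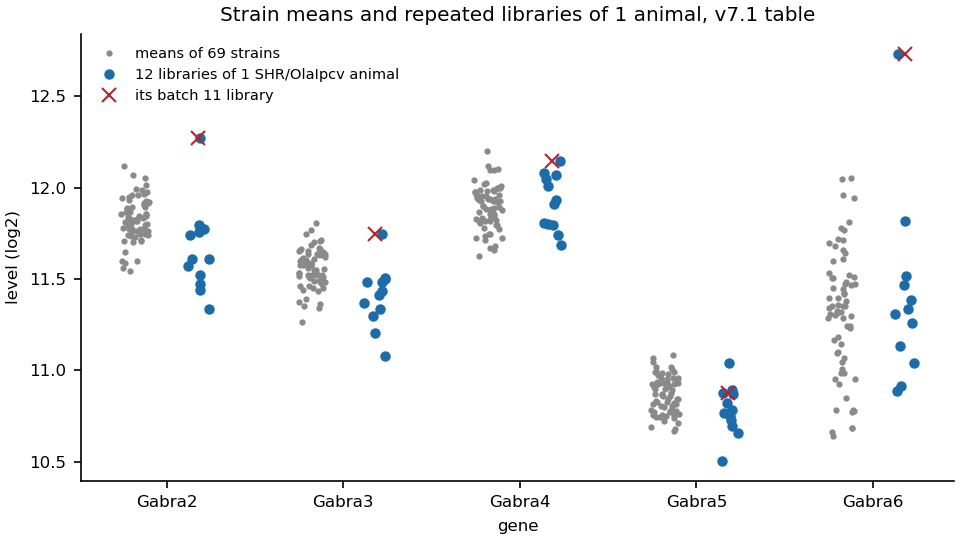
Levels (y axis, log2) of the 5 genes (x axis) in the v7.1 table, with grey points for the means of 69 strains, blue points for the 12 libraries of 1 SHR/OlaIpcv animal and a red cross for its batch 11 library. For Gabra2 and Gabra6 the 12 libraries of this animal spread over 0.94 and 1.85, and over 0.46 and 0.93 without the batch 11 library.

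Over all strains of v7.1 with 2 or more animals, Gabra2, Gabra3, Gabra4 and Gabra5 had higher r with each other than with Gabra6. Over the strain means of 69 strains the Pearson r was 0.81 between Gabra2 and Gabra3, 0.70 between Gabra2 and Gabra4, and 0.67 between Gabra3 and Gabra4. Gabra5 had r of 0.61 to 0.63 with these 3. Gabra6 had r of 0.31 with Gabra2, 0.38 with Gabra3, 0.37 with Gabra4 and -0.01 with Gabra5. The deviations of 192 animals from their strain means gave similar values, 0.83 between Gabra2 and Gabra3 and 0.76 between Gabra2 and Gabra4. In the 30 HXB/BXH strains of v7.1 this order did not hold throughout, since r was 0.43 between Gabra3 and Gabra6 but 0.38 between Gabra2 and Gabra5 and 0.40 between Gabra3 and Gabra5. The values differed in v5 too. Over its 45 strains r was 0.63 between Gabra2 and Gabra3, 0.10 between Gabra2 and Gabra4, 0.21 between Gabra4 and Gabra5, and -0.74 between Gabra5 and Gabra6. Over the 30 HXB/BXH strains of v5 r between Gabra2 and Gabra3 was 0.81. These genes share libraries, and no test was made.

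The genes most like each member over 69 strains were taken from 5167 candidates above the median in level and R2. For Gabra2 they included Opcml (r = 0.85) and the AMPA receptor gene Gria3 (0.85). For Gabra3 they were the kinase gene Pak3 (0.91), the deubiquitinase gene Usp9x (0.91) and the exchanger gene Slc9a7 (0.89). For Gabra4 they were Lgi1 (0.80), Opcml (0.76) and the cadherin gene Cdh9 (0.75). Gabra5 had lower values, with the phosphodiesterase gene Pde1a (0.72), Fat3 (0.71) and the forebrain transcription factor gene Neurod6 (0.70). Gabra6 was most like Crtam (0.84), St18 (0.81) and Gcnt1 (0.80). These r values come from the same libraries and were picked as the highest.

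Beyond the alpha subunits, 5 of 12 other GABA-A subunit genes passed over all strains in v7.1, against 37.3% of all genes. Among them were the beta subunit gene Gabrb1 with the highest R2, 0.49, Gabrr2 with 0.48, and Gabrq with the lowest, 0.47. Their list had a median R2 of 0.454, beside 0.451 for all genes. In the HXB/BXH strains 0 of the 12 passed by limma, against 19.1% of all genes, and 2 had an unadjusted p below 5%, Gabre and Gabrq, against 32.6% of all genes. Of 26 genes of GABA synthesis, transport, breakdown and receptor anchoring, 9 passed over all strains, against 37.3% of all genes. The highest R2 was 0.64 for the transporter gene Slc6a13 and 0.59 for Abat, which encodes the GABA-degrading transaminase. The lowest R2 among the 9 were 0.49 for the GABA-B receptor gene Gabbr2 and 0.50 for Shisa7. In the HXB/BXH strains 7 of the 26 passed, against 19.1% of all genes, among them Gad1, Slc6a12, Slc6a13, Abat, Shisa7 and Plcl1.

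At the level of RefSeq transcripts, 17 transcripts of the 5 genes were listed in v7.1 and 4 passed over all strains by limma, against 13.9% of 45922 transcripts. Estimated counts of overlapping isoforms divide shared reads, so that single transcript values are less certain than gene values. The Gabra2 transcript NM_001135779.2 passed with R2 = 0.55 (limma adjusted p = 0.00266). Among strains with 2 or more animals its lowest was BN-Lx/Cub at 7.60, 7.78 and 7.57, and its highest was LEXF5/Stm at 9.74 and 9.51. BN-Lx/Cub therefore had the lowest level of this transcript while standing among the highest strains for Gabra2 as a gene. Over 69 strains the transcript had a Pearson r of 0.01 with its gene. The call was lost without the animals of replicate number 1 and without those of replicate number 2 (limma adjusted p = 0.381 and 0.397). The other Gabra2 transcript, XM_017599106.2, passed in the inbred strains (limma adjusted p = 0.0191), where 3 of 17 transcripts passed against 6.08% of all.

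The Gabra5 transcript XM_017589074.2 passed over all strains (R2 = 0.52, limma adjusted p = 0.0124) and in the FXLE/LEXF strains (R2 = 0.77, limma adjusted p = 0.0213), where 1 of 17 transcripts passed against 1.83% of all. Among strains with 2 or more animals it was lowest in LEXF5/Stm, at 7.85 and 7.32, and in LEXF1C/Stm, at 8.52 and 7.95. It stood at 10.28, 10.38 and 10.40 in LEXF10A/Stm. The animals of these strains did not overlap, but the strains were picked for their means, so this is a description. The call over all strains was kept with batch as a covariate and lost in each of the 3 fits without a replicate number (limma adjusted p from 0.126 to 0.447). LEXF1C/Stm and LEXF10A/Stm were also among the lowest and the highest of their family for Gabra5 as a gene, whereas LEXF5/Stm with a gene level of 10.82 was not. Both Gabra6 transcripts, NM_021841.1 and XM_006246128.4, passed over all strains (limma adjusted p = 0.0115 and 0.00382) and in the inbred strains (limma adjusted p = 0.00358 and 0.00168). Over all strains NM_021841.1 lost its call in 3 of 4 alternatives (limma adjusted p of up to 0.598), and XM_006246128.4 lost it in 2 of 4 (up to 0.462). They followed their gene with a Pearson r of 0.94 and 0.97 over 69 strains. In the HXB/BXH strains 0 of the 17 transcripts passed by limma, against 6.84% of all, and NM_001135779.2 alone had an unadjusted p below 5%, against 17.5% of all.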

How the data were processed

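RNA from brains of untreated rats was measured by total RNA sequencing. The deposited values were on a log2 scale. According to the methods, the authors trimmed reads with cutadapt, removed ribosomal reads with Bowtie2, aligned the rest with HISAT2 to strain-specific rn6 genomes, assembled transcripts with StringTie, estimated counts with RSEM, adjusted them by the first factor of an analysis of unwanted variation and put the result through the regularized log of DESeq2. The adjustment is described for the assembled transcripts, and whether it was made in the same way for the v5 Ensembl genes is not given in the sources used here, nor is how v6 and v7.1 were made. The submitters' processing notes name cutadapt 1.9.1, Bowtie2 2.3.4.3 and 2.4.5, HISAT2 2.1.0 and 2.2.1, StringTie 1.3.5 and 2.2.1, and RSEM 1.3.1 and 1.3.3, with no table named. A removal of variation between batches can also take out strain differences where batches hold few strains. No counts were used, so depth is unknown, no counting interval was computed and the number of animals limits the precision.

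Strain, replicate number and batch came from the labels, although the title of 26 samples gives another batch. Libraries of the same strain and replicate number were averaged to animals. Nothing in the labels says whether replicates shared a litter or an extraction, so the p-values measure the spread between these samples. Strain effects were tested with limma (3.58.1, R 4.3.3) in a moderated F-test and pairs of strains as contrasts in the fit over all strains, with Benjamini-Hochberg adjustment over all genes and a threshold of 5%. R2 was the between-strain share of the sum of squares. Groups of strains were compared as averages of strain means, and the SE holds the spread of animals within strains, not that between strains. Strain means were clustered with mclust (6.1.1), with at most 3 clusters. Correlations used Python 3.11.15. Scripts were tested on simulated data with 200 changed genes. Pairing was checked by correlating deviations from strain means, which gave 0.0210 between samples of the same replicate number and -0.0103 between others, so the numbers were treated as names. The 5 genes were given by name. For each, the 3 strains at either end, among strains with 2 or more animals, and the 3 genes most alike in strain means were picked. Some of these strains are not named here. Of the gene lists, those called with the 2 highest and lowest R2 were to be named, and further called genes were named after their values were seen. Some genes that the rule selects are not reported here. The genes, lists and the group comparison of Gabra6 were chosen with earlier results of these data known. Alternatives were a batch covariate, a replicate block, a low-value filter, median centring, robust variance estimates, the v5 and v6 tables and leaving out animals.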

Additional observations from a re-analysis of the deposited data

How the results depend on the processing

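Over 45 combinations of a member gene and a comparison, 605 alternative values were computed, of which 500 kept direction and side of the threshold, 18 lost the call, 46 gained one and 30 changed sign. Most of the 500 are results that stayed uncalled. For the 4 calls made, 41 of 60 alternatives kept the call, 18 lost it and 1 changed sign. These were Gabra5 over all strains (lost in 2 of 17), Gabra6 in the inbred strains (3 of 15), and, for SHR/OlaIpcv minus BN-Lx/Cub, Gabra2 (kept in 7 of 14) and Gabra3 (kept in 7 of 14). The remaining values were differences within batch 10, with no adjusted p, which moved by more than the SD of the HXB/BXH strains in that batch. The cause of these changes was not tested. With v5, Gabra2, Gabra4 and Gabra6 gained a call over all strains, and with batch as a covariate Gabra2, Gabra3, Gabra4 and Gabra6 did, Gabra6 with repeated libraries counted as replicates but not with 1 library per animal. Without a replicate number, Gabra2, Gabra3 and Gabra6 also gained calls over all strains and Gabra2 in the inbred strains. Calls were also gained by Gabra2 in the FXLE/LEXF strains (1 of 12 alternatives) and by Gabra4 in the inbred strains (2 of 15). Gabra5 gained one for SHR/OlaIpcv minus BN-Lx/Cub (1 of 14). Batch terms act on values whose batch means were already levelled in v6 and v7.1. Depth could not be assessed, and strains with 2 animals or fewer limit the precision. The alternatives named below with 1 library per animal, with groups of other inbred strains or without named strains were chosen after seeing the data.

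The number of genes past 5% moved as follows. A low-value filter, which left 10429 of 20859 genes to test, gave 3579 instead of 7785 over all strains, 1532 instead of 3992 in the HXB/BXH strains, 384 instead of 962 in the FXLE/LEXF strains, 1269 instead of 4029 in the inbred strains, 469 instead of 940 for SHR/OlaIpcv minus BN-Lx/Cub, 18 instead of 166 for F344/Stm minus LE/Stm, 52 instead of 172 for SHR/OlaIpcv minus WKY/NCrl and 86 instead of 206 for SS/JrHsd minus SR/JrHsd. The batch covariate gave 15256 over all strains, 6694 in the HXB/BXH strains, with all libraries and with 1 library per animal, 192 for SHR/OlaIpcv minus BN-Lx/Cub, 39 for SHR/OlaIpcv minus WKY/NCrl and 16688 transcripts instead of 6381. With 1 library per animal the same covariate gave 1567 and 77 for these pairs. There Gabra2, Gabra3 and Gabra4 were lower in SHR/OlaIpcv by limma, at -0.93, -0.78 and -0.85. The v5 table gave 6294 in the inbred strains, 676 for F344/Stm minus LE/Stm, 4504 for SHR/OlaIpcv minus WKY/NCrl and 767 for SS/JrHsd minus SR/JrHsd. The v6 table gave 2896 in the 5 FXLE/LEXF strains it held and 408 for SHR/OlaIpcv minus BN-Lx/Cub. For the other inbred strains minus the HXB/BXH strains, 206 genes passed in v7.1, 11668 in v5, 11836 in v5 after median centring, 11490 in v5 without F344/NCrl and SHRSP/A3NCrl, 3786 in v5 with the batch covariate and 127 in v6 with it. The centring moved the split in v5 from 6112 higher of 11668 to 4961 higher of 11836, while Gabra6 stayed at -2.89. Mixture models found more than 1 cluster in 0 combinations of v7.1 and in 1 of v5.

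The replicate block gave 410 calls for SHR/OlaIpcv minus BN-Lx/Cub and 98 for SHR/OlaIpcv minus WKY/NCrl, and Gabra2 and Gabra3 lost their calls under it. Since 55 of 162 animals correlated best with their own number, replicate numbers are only names. The block moved no other count by over 1.5 times.

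Leaving out a replicate number gave 3003 to 6065 calls over all strains, and leaving out LEXF2C/Stm replicate 3 alone gave 7745. Leaving out replicates gave 1677 to 1941 in the HXB/BXH strains, 60 to 1359 in the FXLE/LEXF strains, 1199 to 2409 in the inbred strains, 202 to 1777 for SHR/OlaIpcv minus BN-Lx/Cub, 132 to 147 for F344/Stm minus LE/Stm, 37 to 121 for SHR/OlaIpcv minus WKY/NCrl, 55 to 348 for SS/JrHsd minus SR/JrHsd and 2217 to 3498 transcripts.

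Changes of sign, apart from Gabra2 in v5 below, touched differences that had not passed. For SHR/OlaIpcv minus BN-Lx/Cub, v5 gave 0.0693 for Gabra2 and 0.00937 for Gabra4. For F344/Stm minus LE/Stm, Gabra6 was -0.0664 under the replicate block and -0.16 in v5, and -0.10 to 0.17 without single replicates. For SHR/OlaIpcv minus WKY/NCrl, Gabra3 was 0.0626 with the batch covariate, Gabra4 was -0.00339 without the batch 11 library and -0.0604 to 0.12 without single replicates. For SS/JrHsd minus SR/JrHsd, Gabra3 was 0.0189 and 0.0192 with batch covariates and 0.000662 in v6. Without single replicates that pair gave -0.24 to 0.0316 for Gabra2, -0.21 to 0.0942 for Gabra3, -0.24 to 0.0261 for Gabra5 and -0.0521 to 0.0341 for Gabra6. For the other inbred strains minus the HXB/BXH strains, batch covariates gave -0.13 for Gabra2, -0.20 for Gabra3 in v7.1 and -0.0233 in v6, and -0.0146 for Gabra5, and v6 gave 0.00924 for Gabra4. With the other inbred strains of v5 only, v7.1 gave -0.00873 for Gabra2 and -0.0426 for Gabra3, and v6 gave -0.0143 for Gabra3, while Gabra6 gained a call in both.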

Other observations

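The 3 tables ordered the strains alike to different degrees for each gene. Between v7.1 and v6, strain means over 58 strains had a Pearson r of 0.95 for Gabra3 and Gabra4, 0.98 for Gabra2, 0.99 for Gabra5 and 0.999 for Gabra6. Between v7.1 and v5 over the 30 HXB/BXH strains r was 0.69 for Gabra3, 0.74 for Gabra2 and Gabra4, 0.85 for Gabra6 and 0.95 for Gabra5. The tables share animals, so these values describe the processing and not a repeat of the experiment.

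FXLE13/Stm, with a single animal, had the lowest Gabra6 level of the FXLE/LEXF strains, 10.45, and the highest strain values of that family for Gabra2, 12.06, Gabra4, 12.11, and Gabra5, 11.03. LEXF9/Stm, also a single animal, had the lowest Gabra5 level of 10.46 and the highest Gabra6 level of 11.76. In these animals the mean of the granule cell markers was 9.58 in FXLE13/Stm and 10.6 in LEXF9/Stm, the ends of the family. No test was made on single animals.

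In v5 the Pearson r between Gabra5 and Gabra6 over the HXB/BXH strains was -0.57, while in v7.1 it was -0.29.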
